A study of Mus musculus and unidentified plasmid with 60 samples.

Results

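A set of 378 ChIP-seq regions was examined that were listed after depolarization of mouse cortical neurons, but not in silenced neurons, in only 1 of the 2 replicate columns, and in the same 10 kb window as another region listed only after depolarization. The chromatin came from cortical neurons of E16 CD-1 embryos, precipitated through the MYC tag of a dominant-negative form of the RFX transcription factors (RFX-DN). The construct was brought in by lentivirus at day in vitro (DIV) 2 and was carried at both times, so the regions describe the tagged construct and not the native RFX proteins. Activity was blocked overnight, starting on DIV 6, with tetrodotoxin together with the NMDA receptor antagonist DL-2-amino-5-phosphonopentanoic acid. On DIV 7 the drugs were removed and 55 mM KCl was added for 1 h (2 libraries), against 0 h (2 libraries). Another group, titled WT (2 libraries), is labelled with no treatment, and its labels leave unclear if the construct was present. The other samples of the series, 2 input libraries among them, were not analysed here.

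RFX proteins share a winged-helix domain that reads the X-box, a roughly palindromic DNA element, and they bind as dimers. They are best known for switching on genes of cilia and, in immune cells, genes of antigen presentation. A dominant-negative form keeps the part that binds DNA or partners and blocks the native proteins from working. Depolarization with KCl opens voltage-gated calcium channels and starts a rapid programme of transcription in neurons.

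Each list gives a chromosome, a start, an end and a centre in each of 2 replicate columns, with a mark where a column has none. Of 122135 regions at 1 h, 8170 shared no base with any of the 173231 regions at 0 h (6.69% of the list) and are called 1 h-only. A centre in only 1 column was held by 7879 of these, or 14.3% of the 55225 single-column regions at 1 h. The genome was divided into fixed windows of 10 kb by region start, and the set keeps the single-column 1 h-only regions whose window held at least 2 1 h-only regions of any column support. These were 378 of the 7879 (4.8%) in 197 windows. They are called neighbouring regions below, and the 7501 single-column 1 h-only regions alone in their window are called isolated. The regions were thus selected on measured values, namely absence at 0 h, column support and a shared window at 1 h, so none of these is a finding and no test of them was made. The set depended strongly on the first column of either list. Without regions held by the first 0 h column alone, 3138 regions met the rule, without those of the second 0 h column alone 680, without those of the first 1 h column alone 28 and without those of the second 1 h column alone 210.

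The 1 h columns held 114659 and 74386 centres, against 155961 and 122913 in the 0 h columns. Both 1 h columns were lower than both 0 h columns, with a ratio of means of 0.678. The two-sided exact permutation p was 0.333, the smallest that 2 columns against 2 allow, so the difference could not pass 0.05. Sequencing depth is unknown, and a region missing from a list is one that was not listed, which is not the same as unbound.

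Most windows held only a pair. Exactly 2 1 h-only regions lay in 190 of the 197 windows, 3 in 5 windows, 4 in 1 and 5 in 1. By column support, 94 windows held only first-column regions, 71 held regions of both the first and the second column, 8 held only second-column regions and 24 also held a 1 h-only region with centres in both columns. The 1 h-only regions of a window spanned a median of 2740 bases from the first start to the last end (range 40 to 9520), of which a median of 150 bases was covered by the regions themselves (range 20 to 610).

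The 7 windows with 3 or more 1 h-only regions held 24 of them, 18 single-column and 6 with both columns. In 4 of the 7 windows at least 1 both-column region stood among the single-column ones. Of all 8170 1 h-only regions, 291 had both columns. The 7 windows were picked by their number of 1 h-only regions, and the difference in share was not tested. All positions are in mm9 as the lists give them.

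The window with 5 was on chromosome 12. A second-column region from 86814510 to 86814650 and a first-column region from 86814670 to 86814700 lay 20 bases apart. Then came first-column regions of 20 bases (86815890 to 86815910) and 10 bases (86819160 to 86819170), on either side of a both-column region of 220 bases (86817100 to 86817320). No 0 h region and no other 1 h region lay between them. The nearest 0 h region, from 86813020 to 86813460, ended 1050 bases before the leftmost one, had centres in both columns and was listed at 1 h too, from 86812960 to 86813470. The narrow single-column regions thus surrounded 1 both-column region, to the right of a site listed at both times.

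Chromosome 15 held 4, spread over 3750 bases. The both-column region ran from 101103130 to 101103340. First-column regions lay to its left, from 101100210 to 101100230 and from 101102270 to 101102340, and a second-column region lay 540 bases to its right, from 101103880 to 101103960. Further right, from 101105470 to 101107040, the 1 h list held a both-column region of 1570 bases where the 0 h list had only a first-column region of 60 bases (101106890 to 101106950). A like arrangement was seen on chromosome 1. A first-column region from 135971810 to 135971880 lay 460 bases from a both-column region (135972340 to 135972510), a second both-column region followed (135976910 to 135977040), and to the left a 1 h region of 900 bases (135970370 to 135971270) covered a 0 h region of 30 bases held by the second column alone (135970420 to 135970450). Between the both-column regions, the 1 h list held 2 regions of 290 and 310 bases within a 0 h region of 1320 bases (135973770 to 135975090). Another shared site, from 135979450 to 135979820, had 370 bases at 1 h and 360 bases at 0 h. The window thus held shared sites that were much wider, narrower and nearly unchanged at 1 h. On chromosome 19, both-column regions of 240 and 210 bases (4983130 to 4983370 and 4983780 to 4983990) were followed after 1400 bases by a second-column region of 40 bases (4985390 to 4985430).

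The other 3 windows held no both-column 1 h-only region. On chromosome 2, first-column regions of 120, 140 and 60 bases (156821800 to 156821920, 156822940 to 156823080 and 156827930 to 156827990) stood in a window with no 0 h region at all, the nearest lying 3650 bases from the first of them. On chromosome 6, a second-column region of 40 bases (91830150 to 91830190) began 10 bases after a first-column 0 h region (91830090 to 91830140). A first-column region of 10 bases (91830210 to 91830220) followed it, and another of 80 bases lay 3630 bases on (91833850 to 91833930). On chromosome 11, second-column regions from 23155390 to 23155530 and from 23156790 to 23156920 flanked a first-column region of 10 bases (23156110 to 23156120). The leftmost began 100 bases after a both-column 0 h region (23155030 to 23155290) that was not listed at 1 h.

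**Figure D1:**
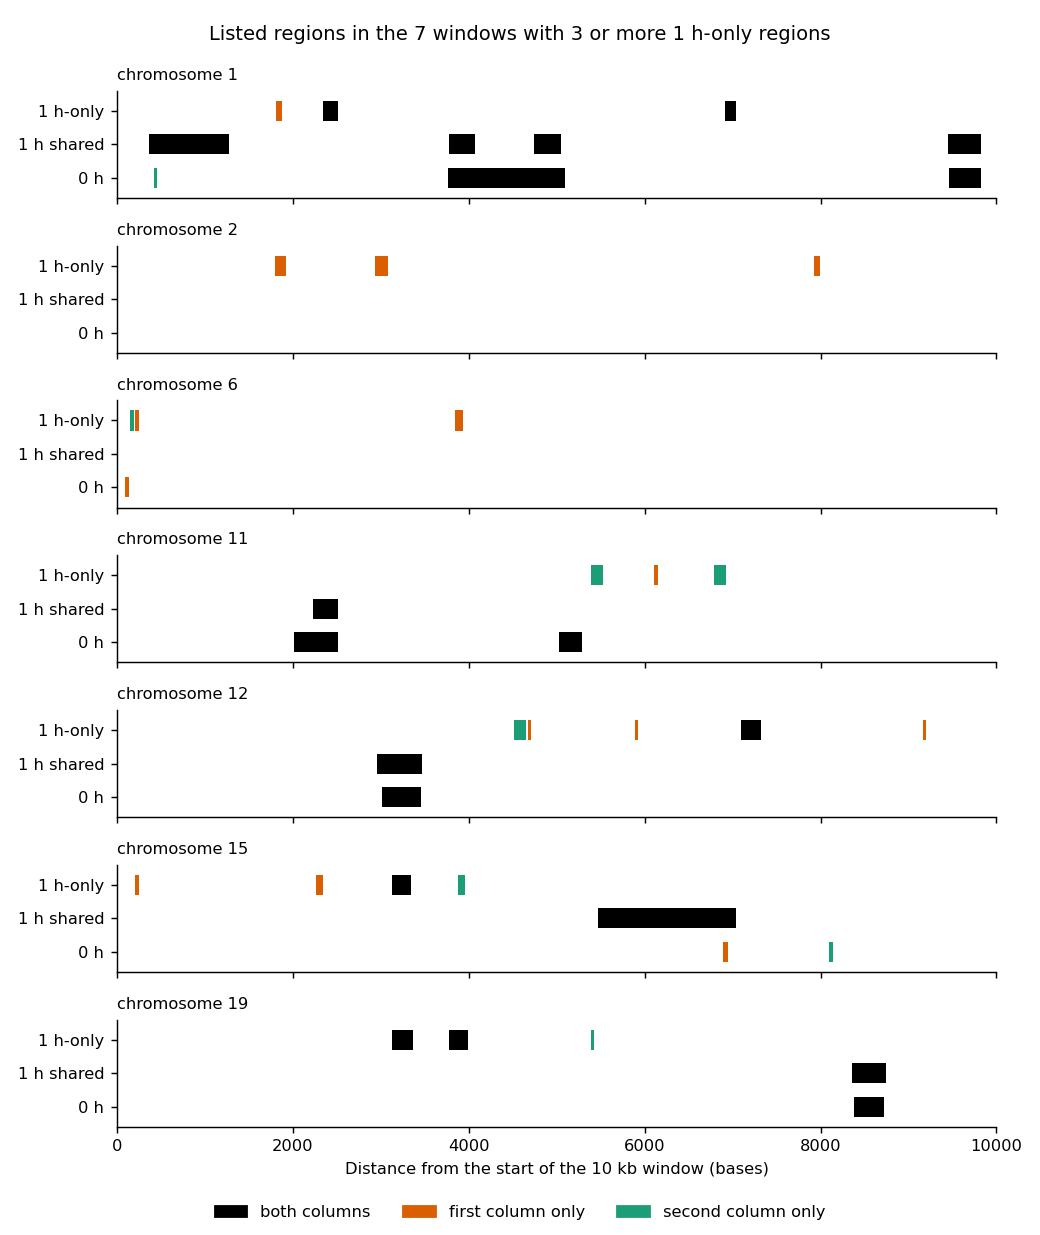
Each panel is 1 of the 7 windows of 10 kb with 3 or more 1 h-only regions, with distance from the window's start in bases on the horizontal axis and, from top to bottom, 1 h-only regions, 1 h regions with a 0 h counterpart, and 0 h regions. Colour gives the replicate columns that hold a centre, and regions under 40 bases are drawn 40 bases wide. On chromosomes 1, 12, 15 and 19 the single-column regions stand beside both-column 1 h-only regions in black, and on chromosomes 1 and 15 a wide shared 1 h region meets a narrow 0 h region, whereas another 0 h region on chromosome 1 meets 2 shorter 1 h regions.

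The column support of adjacent 1 h-only regions differed with the gap between them, which the spacing of the lists fixed in part. The 197 windows held 207 adjacent pairs. All 21 pairs with a gap of 50 bases or less joined a first-column to a second-column region. Adjacent single-column regions of the same column lay at least 410 bases apart in both lists. No pair this close could therefore have been of 1 column, and the result only describes the lists' spacing. Between 51 and 500 bases, pairs of a first-column and a second-column region were 11 of 16. Such pairs were 11 of 54 between 501 and 2000 bases, 19 of 85 from 2001 to 5000 bases and 11 of 31 above 5000 bases. Pairs in the same column were 3 of the 37 within 500 bases and 103 of the 170 farther apart, and 98 of those 106 were in the first column. Most of the range up to 500 bases lay below the spacing of 410 bases. The low same-column share within 500 bases therefore describes the lists' spacing too. The remaining pairs included a both-column region.

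The 21 closest pairs lay 10 to 50 bases apart (median 20), with centres 30 to 110 bases apart (median 60), and 13 of the 21 included a region of 10 bases, the smallest width in the lists. The closest was on chromosome 3, where a first-column region from 151928890 to 151929000 and a second-column region from 151929010 to 151929050 were separated by 10 bases. Of the 16 regions with a gap of 20 bases in windows with 2 1 h-only regions, those first by position are given. On chromosome 1, a first-column region of 30 bases (39461640 to 39461670) was followed after 20 bases by a second-column region of 60 bases (39461690 to 39461750). On chromosome 2, regions of 10 bases in the first column (173563410 to 173563420) and in the second (173563440 to 173563450) were also 20 bases apart. In each case, calls of both columns stood next to each other without a shared base, and the lists count them as 2 single-column regions.

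Close pairs of this kind were not limited to 1 h-only regions. In the whole 1 h list, 312 of the 317 adjacent regions within 50 bases of one another were a first-column and a second-column region, and 0 were in the same column. In the 0 h list the numbers were 655 of 662, and again 0 in the same column. The smallest gap between adjacent single-column regions of the same column was 410 bases in either list, against 10 bases between any regions. Of the 312 pairs at 1 h, both regions had a 0 h counterpart in 262, 1 region did in 29, and neither did in the 21 described here. When 1 h-only regions within 50 bases of one another were counted as 1 region, which gives such a pair both columns, 336 single-column regions remained by the same rule. With 500 bases, 307 remained.

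**Figure D2:**
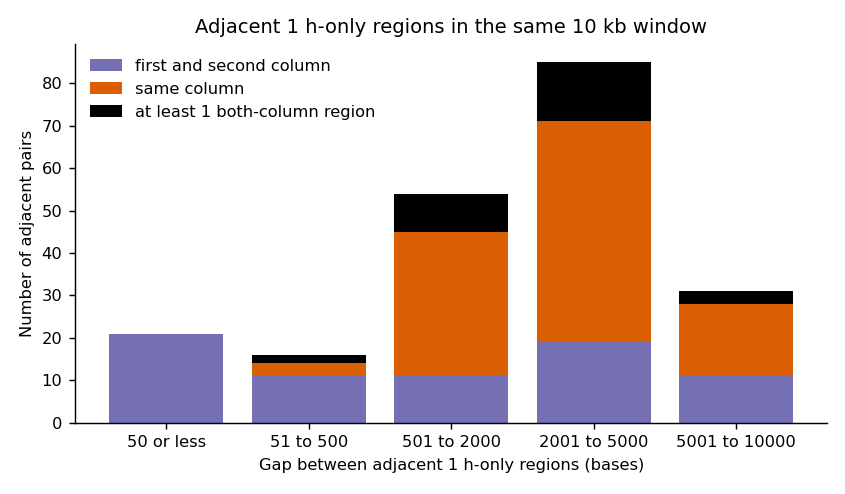
Bars give the number of adjacent 1 h-only pairs in the same 10 kb window by the gap between them in bases, and colours give the replicate columns of the pair. All 21 pairs within 50 bases join a first-column and a second-column region, whereas same-column pairs make up 103 of the 170 pairs more than 500 bases apart. In both lists, adjacent single-column regions of the same column lie at least 410 bases apart. Pairs with a smaller gap, which is most of the range up to 500 bases, could therefore not share a column.

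Most neighbouring regions were not that close to one another. The gap from each to its nearest 1 h-only neighbour had a median of 2420 bases (quartiles 920 and 4250). A neighbour lay within 50 bases for 42 regions, within 500 bases for 71 (18.8%, 95% exact Clopper-Pearson interval 15.0% to 23.1%) and within 5000 bases for 319. The rule kept only regions with a neighbour, so these shares are a description. Just outside it, 281 isolated regions had a 1 h-only neighbour within 10 kb across a window boundary, the closest at 600 bases.

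The first column supplied 280 of the 378 regions (74.1%, interval 69.3% to 78.4%) and the second 98. Among the isolated regions the first column supplied 6336 of 7501 (84.5%), and among all single-column 1 h regions 47749 of 55225. The share was 21 of 42 for regions with a neighbour within 50 bases, as follows from pairs of different columns, and 241 of 307 (78.5%) for those with none within 500 bases. The cause of these differences in column support was not tested.

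The neighbouring regions were narrow. Their median width was 60 bases (quartiles 20 and 117.5, range 10 to 250), against 70 bases for isolated regions, 150 bases for the 291 both-column 1 h-only regions, 140 bases for the 47346 single-column 1 h regions with a 0 h counterpart and 210 bases for the whole 1 h list. The width of 10 bases was held by 66 of the 378 (17.5%) and by 1117 of the 7501 isolated regions (14.9%), against 2.93% of the whole 1 h list. Regions of the second column had a median width of 40 bases and those of the first 70 bases. Those with a neighbour within 50 bases had a median of 30 bases. Width bears on the rule, since a narrow region is less likely to touch a 0 h region, so no test was made.

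**Figure D3:**
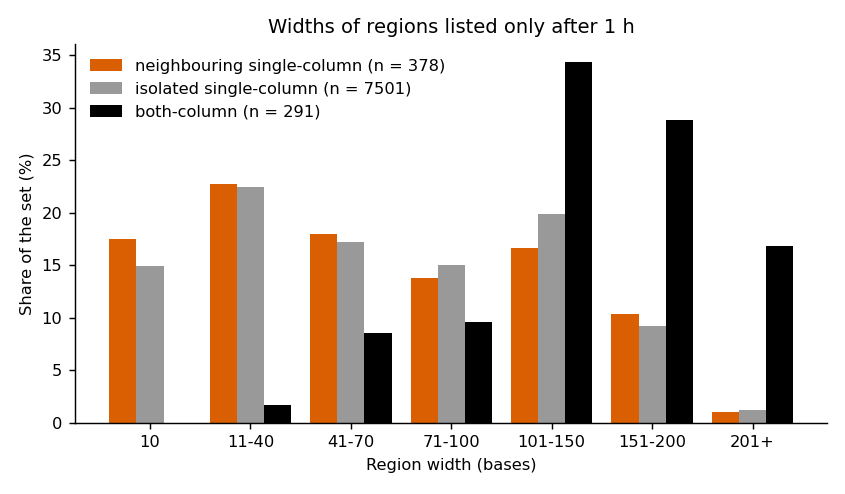
Bars give the share of each set, in %, by region width in bases, for the 378 neighbouring single-column, the 7501 isolated single-column and the 291 both-column 1 h-only regions. The single-column sets have similar widths, with 17.5% and 14.9% at 10 bases, whereas the both-column regions lie mostly above 100 bases.

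The widest of the set reached 250 bases and lay on chromosome 16 (78345800 to 78346050) and chromosome 17 (26642250 to 26642500), both in the first column. They were followed by regions of 240 bases on chromosome 1 (172964460 to 172964700) and 210 bases on chromosome 10 (31329970 to 31330180), also in the first column. Regions of 200 bases lay on chromosome 13 (97417360 to 97417560, second column) and chromosome 17 (8775290 to 8775490, first column). A width of 190 bases was held by 6 regions. They were a first-column region on chromosome 5 (119924940 to 119925130), a second-column region on chromosome 6 (146058940 to 146059130), on chromosome 7 a second-column (29166400 to 29166590) and a first-column region (77312980 to 77313170), and first-column regions on chromosome 11 (87915510 to 87915700) and chromosome 15 (50314020 to 50314210). Of these 12 widest regions, 9 were in the first column and 3 in the second. They stood apart from the close pairs, with their nearest 1 h-only neighbour 700 to 7660 bases away and the nearest 0 h region 470 to 14170 bases away.

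The silenced neurons had listed regions in most of the same windows, though by the rule none shared a base with a neighbouring region. A gap of median 2915 bases (quartiles 975 and 6705, highest 63800) separated a neighbouring region from the nearest 0 h region, against 3920 bases for isolated and 2710 bases for both-column 1 h-only regions. A 0 h region lay within 500 bases of 66 of the 378 (17.5%, interval 13.8% to 21.7%) and of 899 of the 7501 isolated regions (12.0%, interval 11.3% to 12.7%). More than 10 kb separated 60 of the 378 (15.9%) and 1778 of the 7501 (23.7%) from any 0 h region. Second-column regions were nearer to the 0 h list than first-column ones, with medians of 1595 and 3430 bases. At the edge of the rule, 8 of the 378 touched a 0 h region without a shared base and 6 more lay within 10 bases of one. On the other side of that edge, 3041 single-column 1 h regions shared at most 10 bases with a 0 h region, among them 2386 that were themselves only 10 bases wide. Counting a 0 h region within 500 bases as shared left 276 regions, while asking for overlap of at least 50% of both regions gave 3829.

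**Figure D4:**
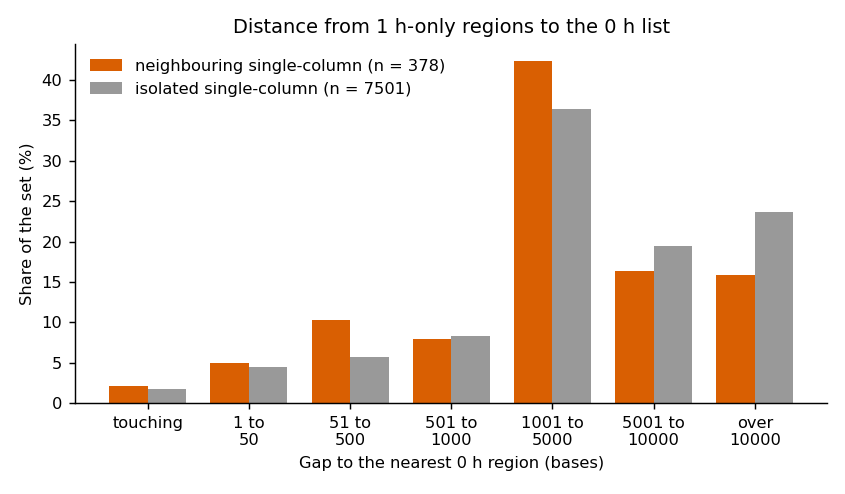
Bars give the share of each set, in %, by the gap in bases to the nearest 0 h region, for the 378 neighbouring and the 7501 isolated single-column 1 h-only regions. In both sets the gap is most often 1001 to 5000 bases, and 15.9% of neighbouring and 23.7% of isolated regions lie over 10 kb from any 0 h region.

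Where it lay more than 500 bases away, it was found at 1 h for 213 of 312 neighbouring regions (68.3%, interval 62.8% to 73.4%), for 66.0% of isolated and 71.4% of both-column 1 h-only regions, against 65.4% of all 0 h regions. Where it lay within 500 bases, it was found at 1 h for 16 of 66 neighbouring regions (24.2%, interval 14.5% to 36.4%) for 211 of 899 isolated ones (23.5%) and for 14 of 36 both-column 1 h-only regions (38.9%). Of adjacent regions with a centre in the same column, 0.832% in the first and 0.823% in the second 1 h column lay within 500 bases. The median gaps between them were 12340 and 16580 bases. Whether this spacing bears on the share found at 1 h was not tested. The rule chose regions by their position relative to the 0 h list, so the share within 500 bases is given only as a description. The 0 h regions farther away were found about as often as 0 h regions in general. The values of isolated regions in this comparison lay within the intervals of the neighbouring ones, and the difference was not tested. Regions of a window can share their nearest 0 h region, so the intervals cover counting error only and are too narrow.

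No 0 h region lay in 65 of the 197 windows (33.0%), against 44.7% of the 7501 windows of isolated regions. No shared 1 h region lay in 108 windows (54.8%), against 60.2%. In 43 windows (21.8%) the 0 h list had a region and none of the 1 h regions was shared. The matching share was not counted for the windows of isolated regions. A 0 h region lay between the partners in 54 of the 207 adjacent pairs, in 2 of the 37 with a gap within 500 bases and in 52 of the 170 with a larger one.

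The sites listed at both times in these windows were compared in extent. The rule did not use their widths directly, but it picked the windows from starts and ends in the same 2 lists. The comparison is therefore not independent of the selection and is given as a description. A shared site is a chain of overlapping 1 h and 0 h regions, and its widths were summed at each time. The windows held 135 shared sites, with a median summed width of 260 bases at 1 h and 270 bases at 0 h. The site was wider at 1 h in 44 of the 135 (32.6%), against 20.3% of all 113073 shared sites and 22.6% of those in windows with a single isolated region. The share was 45.5% of the 22 sites in windows with a both-column 1 h-only region and 30.1% of the 113 sites in the other windows. The median log2 ratio of width at 1 h to width at 0 h was -0.04, against -0.15 over all shared sites. At least 2-fold wider at 1 h were 7 of the 135 (5.19%), against 2.51% of all shared sites, and at least 2-fold narrower were 13 (9.63%), against 15% of all. In all, 75 of the 135 sites were narrower at 1 h and 16 had equal widths. The lists give no replicate error for a width, and these differences were not tested.

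The sites with the largest ratios in either direction, singled out after their widths were seen, were as follows. The site on chromosome 1 from 135970370 to 135971270 had 900 bases at 1 h and 30 bases at 0 h, and that on chromosome 15 from 101105470 to 101107040 had 1570 bases at 1 h and 60 bases at 0 h. Another on chromosome 1 (172962770 to 172962980) had 210 bases at 1 h and 20 bases at 0 h, and a site on chromosome 2 (109538970 to 109539140) had 170 bases at 1 h and 30 bases at 0 h. In the other direction, the site on chromosome 8 (12470830 to 12471050) had 30 bases at 1 h and 220 bases at 0 h, and the site on chromosome 15 from 30783220 to 30783290 had 10 bases at 1 h and 70 bases at 0 h. On chromosome 11 (87914420 to 87914610) the widths were 30 bases at 1 h and 190 bases at 0 h, and on chromosome 5 (118695110 to 118695370) 60 bases at 1 h and 260 bases at 0 h. Changes of at least 2-fold were thus seen in both directions in windows with neighbouring regions, in 9.63% of sites towards narrower and in 5.19% towards wider. Over all shared sites the shares were 15.0% and 2.51%, and in windows with a single isolated region they were 14.8% and 3.26%. Narrowing thus outweighed widening less in these windows than in either. The sites named as wider had only 20 to 60 bases at 0 h, and the differences were not tested.

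**Figure D5:**
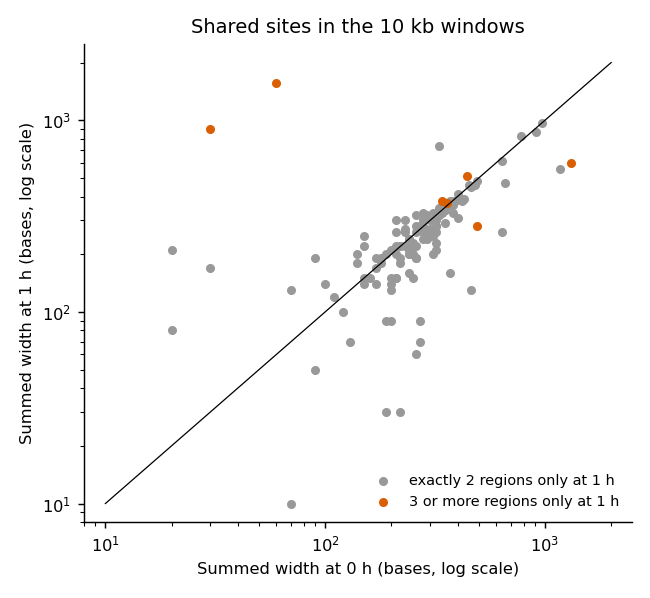
Each point is 1 of the 135 sites listed at both times in the 197 windows, with its summed width at 1 h on the vertical and at 0 h on the horizontal axis, in bases on log scales, and the line marks equal width. Most points lie near the line, and the sites of 900 and 1570 bases at 1 h, on chromosomes 1 and 15, stand far above it. At least 2-fold above the line are 7 points and at least 2-fold below it are 13, down to 30 bases at 1 h and 220 bases at 0 h.

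The neighbouring regions were spread over the genome. Chromosomes 1 to 19 held 8 to 33 of them each, with the highest number on chromosome 5 and the lowest on chromosome 9, and 0 of the 197 windows bordered another of them. Relative to all single-column 1 h-only regions of a chromosome, they made up 2.16% (chromosome 9) to 7.33% (chromosome 5), with a median of 4.64%. Chromosome 20 in the lists' numbering, presumably X, held 19 of them, or 5.81% of its single-column 1 h-only regions. It held 5.03% of the neighbouring and 4.11% of the isolated regions, against 2.71% of all 1 h regions. Single-column 1 h-only regions made up 9.89% of its 1 h regions, above the 5.52% to 7.38% of chromosomes 1 to 19, and the difference was not tested. None of these 19 had a 1 h-only neighbour within 500 bases, against 71 of the 359 on the other chromosomes. This was not particular to chromosome 20. The smallest gap was 550 bases among the 23 neighbouring regions of chromosome 13 and 1190 bases among the 16 of chromosome 14. Chromosome 21 held 0.

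The WT list held only 43 regions, so few overlaps with it were possible. A WT region overlapped 1 of the 378 (0.265%, interval 0.00670% to 1.47%), against 0.0295% of all 1 h regions. This first-column region on chromosome 10, from 83417190 to 83417370, began at the same base as a WT region of 90 bases (83417190 to 83417280) with a centre in the first WT column only. Its neighbour, a first-column region of 160 bases from 83415770 to 83415930, lay 1260 bases away, and no 0 h region lay within 18040 bases. A single region does not allow a comparison of the rates.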

How the data were processed

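Regions were taken from 3 lists, each deposited once for the 2 ChIP-seq libraries of its group. The deposited values are positions in bases, not counts. Per the file headers and values, each list holds start, end and, in columns c1 and c2, a centre position or -1 for none. All centres lay inside their region, and the columns name no library. Bowtie and mm9 were used, per the submitters' processing notes; the sources used here do not give the peak caller, its threshold, filters, how replicates were combined or if starts count from 0 or 1. Regions and lists were chosen with earlier results of these data known. Overlap of at least 1 base counted as shared, and gaps run from edge to edge. Nothing states that the libraries are separate cultures, so the 1 p-value, an exact permutation test over columns, measures only their spread, which may be technical. Shares carry exact Clopper-Pearson intervals at 95%, which cover counting error only. Regions named are all in windows with 3 or more 1 h-only regions, the 10 widest (with 2 more of equal width, added after their values were seen), the 5 with the smallest gap to a neighbour elsewhere (ties by position), partners of these, and those that overlap WT. Shared sites were named after their widths were seen. With no genome or annotation of that build at hand, genes, promoters, motifs, fixed gene and marker lists and sequences were not analysed here. The rule and the gap code were tested on simulated lists. Python 3.11.15, numpy 2.4.6, pandas 2.3.3 and scipy 1.17.1 were used.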

Additional observations from a re-analysis of the deposited data

How the results depend on the processing

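No paired analysis was possible because neither list says which library fills which column. Alternatives based on gene bodies, transcription starts, RFX half-sites and activity-regulated genes were not run, for want of an annotation and genome in mm9. The main values were 378 regions, 197 windows and 18.8% of regions within 500 bases of another 1 h-only region. Smaller windows of 5 kb gave 198 regions, 101 windows and 34.8%, and windows of 20 kb gave 620, 315 and 11.5%. Overlap of at least 50% of both regions gave 3829, 2189 and 29.5%. With only both-column 0 h regions, the values were 3790, 2004 and 8.92%, since fewer 0 h regions could be met. Leaving out 1 h regions under 50 bases gave 149, 83 and 6.04%. With 1 column of a list left out, the values ran from 28 to 3138 regions, from 19 to 1639 windows and from 0% to 19.0%. All 3 were lowest without the first 1 h column, and the counts were highest without the first 0 h column. Merging 1 h-only regions within 500 bases left 0% by construction, and merging within 50 bases, chosen after seeing the data, left 8.63%. Both counts stayed within 1.5 times under these mergings, under assignment by midpoint, with 0 h regions within 500 bases counted as shared, and with windows offset by 5 kb, although the offset kept only 203 of the 378 regions in a set of 362. The median width left its 95% interval under 5 of 13 alternatives, the first-column share under 7 and the share with a 0 h region within 500 bases under 8. The ratio of centres per column at 1 h to 0 h was 0.533 to 0.822 with 1 column left out, an alternative chosen after seeing the data. A detection limit would need the depth, which is unknown.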
